A study of Mus musculus with 6 samples.

Results

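The genes described here encode 10 integrin subunits of T-cell homing and adhesion, namely Itgb7, Itgae, Itga4, Itgb1, Itgal, Itgb2, Itga6, Itgav, Itga5 and Itgb3. They were chosen by name, and each is read by its brightest probe set among those that the array annotation pairs with that gene alone. All 10 were measured, each on 1 such probe set, out of 19938 genes that have one. Thymus RNA came from RUNX2/MYC mice (genotype CD2-Myc/CD2-Runx2, background strain C57BL6/CBA) and from wild-type (WT) mice of genotype C57/CBA, all 10 days old, with 3 arrays a group labelled as biological replicates. The CD2 control region drives both transgenes in the lymphoid lineage, no array carries either transgene alone, and the organ was used whole, so stroma and blood cells contribute to every value. Values are the authors' log2 signals, so a difference of 1 means a doubling, and the signals of different genes, which depend on their probes, do not say which gene is more abundant.

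Integrins are surface receptors made of an alpha and a beta chain that only reach the membrane as a pair, and they hold a cell to its neighbours or to matrix once signals from inside the cell have opened them. The beta-7 chain, encoded by Itgb7, pairs with the alpha-E chain of Itgae, a pair that binds E-cadherin on epithelium and is known as CD103 by its alpha chain, or with the alpha-4 chain of Itga4, a pair that binds MAdCAM-1 on vessels of the gut. The beta-1 chain of Itgb1 pairs with alpha-4, alpha-5 and alpha-6 to bind VCAM-1, fibronectin and laminin, the beta-2 chain of Itgb2 pairs with alpha-L (Itgal) to form LFA-1, which binds ICAMs, and the beta-3 chain of Itgb3 pairs with alpha-V (Itgav). In the thymus, CD103 is known from late CD8 single-positive thymocytes, some regulatory T cells and some dendritic cells.

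The arrays ran close together (the lowest correlation of log2 signals between a pair of arrays was 0.969), with medians from 7.31 to 7.49. Runx2, whose probe set number was taken from the study's supplementary list of names, separated the groups with signals of 11.73, 11.78 and 11.96 on the RUNX2/MYC arrays and 7.94, 7.94 and 7.93 on the WT arrays. RUNX2/MYC replicate 2 stood apart in genes of fat: 10 of 11 measured adipocyte genes were highest in it, and Ucp1, a gene of brown fat, read 9.93 there against 6.12 to 6.95 in the other arrays. None of the 10 integrin genes was highest in that array. On the first principal component the first RUNX2/MYC array and the third WT array sat in the middle (-6.8 and 5.1, where the other RUNX2/MYC arrays lay at 39.4 and 45.2 and the other WT arrays at -45.9 and -37.0).

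The alpha-E and beta-7 genes were the 2 members that rose in RUNX2/MYC thymus, and the other 8 did not pass the test in either direction. Groups were compared by limma, a moderated linear model on the log2 scale, and a gene is called at an adjusted p under 0.05 (Benjamini-Hochberg over all 35556 probe sets). By that rule 1.68% of all probe sets were higher and 0.127% lower (1.8% in either direction), against 2 and 0 of the 10 members. At an unadjusted p under 0.05 the share was 21.3% of all probe sets, against 2 of the 10 members. The median log2 fold change of the 10 members was -0.12, and that of all probe sets -0.051. In RNA from a whole organ, a larger share of cells that carry a transcript and more of it per cell cannot be told apart.

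Itgae, the chain that gives CD103 its name, had log2 signals of 9.31, 9.13 and 9.47 on RUNX2/MYC replicates 1 to 3 and of 7.72, 7.85 and 8.03 on WT replicates 1 to 3. The lowest RUNX2/MYC array thus lay more than 1 log2 unit above the highest WT array. The log2 fold change was 1.44 (standard error 0.126, 95% interval 1.14 to 1.74, adjusted p = 0.0141 from limma), a 2.71-fold rise, which placed Itgae at 15 among the 19938 genes ordered from the highest to the lowest signed log2 fold change.

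Itgb7, its beta chain, had log2 signals of 9.05, 9.09 and 9.10 on the RUNX2/MYC arrays and of 7.89, 7.86 and 8.20 on the WT arrays. The RUNX2/MYC arrays were nearly level (SD 0.024, n = 3), and WT replicate 3 was the highest of its group (WT SD 0.19, n = 3) without reaching them. The log2 fold change was 1.09 (standard error 0.112, 95% interval 0.83 to 1.36, adjusted p = 0.0145 from limma), a 2.13-fold rise, at place 51 in the same order.

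Both calls held when the first RUNX2/MYC array or the third WT array was dropped. They ended when RUNX2/MYC replicate 2 was dropped (adjusted p from limma 0.0898 for Itgb7 and 0.087 for Itgae), likewise for RUNX2/MYC replicate 3 (0.0865 for each), for WT replicate 1 (0.0707 and 0.0696) and for WT replicate 2 (0.11 for each). In those 4 fits only 3 or 4 of all probe sets passed. The sizes moved little: leaving out any single array gave 1.03 to 1.20 for Itgb7 and 1.36 to 1.53 for Itgae, and without RUNX2/MYC replicate 2, the array high in fat genes, they were 1.09 and 1.53. With the test that the methods name both genes passed by q value (q = 0.026 for Itgb7 and 0.0229 for Itgae, where 4.11% of all probe sets passed), and with Benjamini-Hochberg in its place neither did (adjusted p = 0.0639 and 0.0564, in a range over all settings of 3.2e-04 to 0.11 for each gene).

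**Figure D1:**
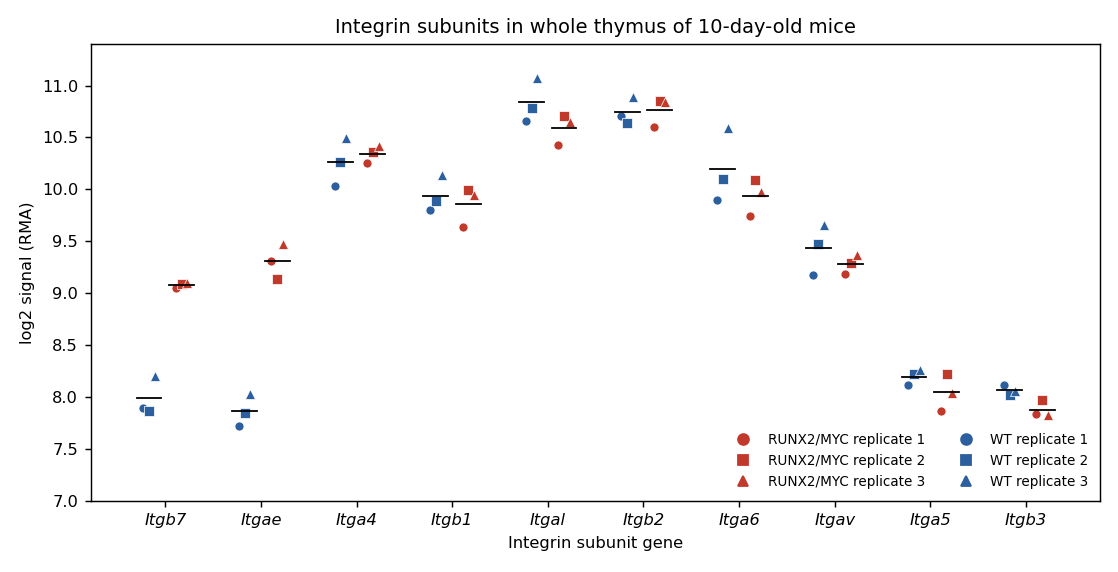
Log2 signal (vertical axis) of each of the 10 integrin subunit genes on the 3 WT arrays (blue) and the 3 RUNX2/MYC arrays (red), with a bar at each group mean and symbols for the replicate number. For Itgb7 and Itgae every RUNX2/MYC array lies above every WT array, and for Itgb3 every one lies below.

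The alpha-4 gene, whose chain also joins beta-7, was not called. Itga4 had log2 signals of 10.25, 10.36 and 10.42 on the RUNX2/MYC arrays and of 10.03, 10.26 and 10.50 on the WT arrays, so that the RUNX2/MYC arrays lay inside the WT range. Its log2 fold change was 0.082 (95% interval -0.23 to 0.40, adjusted p = 0.706 from limma), and its sign turned with the scaling of the arrays (-0.069 under cyclic loess). That interval ends below the intervals of both CD103 chains.

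The beta-1 gene, the common partner of most alpha chains here, had log2 signals of 9.63, 9.99 and 9.94 on the RUNX2/MYC arrays and of 9.80, 9.88 and 10.14 on the WT arrays. The groups overlapped, with a log2 fold change for Itgb1 of -0.086 (95% interval -0.41 to 0.24, adjusted p = 0.703 from limma). That sign turned with array weights, and also when the first RUNX2/MYC array or the third WT array was dropped. The alpha chains that join it to matrix had negative values that did not pass: -0.26 for Itga6, a laminin receptor chain (95% interval -0.71 to 0.19), and -0.15 for Itga5, the chain of the fibronectin receptor (95% interval -0.42 to 0.12). Itga6 was the most variable member, with WT arrays from 9.89 to 10.59.

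LFA-1, the leukocyte integrin that holds T cells to cells bearing ICAMs, showed no called change in either chain. Itgb2 had log2 signals of 10.60, 10.85 and 10.84 on the RUNX2/MYC arrays and of 10.70, 10.64 and 10.89 on those of WT, and its log2 fold change was 0.017 (95% interval -0.25 to 0.29, adjusted p = 0.935 from limma) with a sign that turned under 7 of 16 settings. Itgal, its alpha chain, had signals of 10.42, 10.70 and 10.65 against 10.65, 10.79 and 11.07, a log2 fold change of -0.25 (95% interval -0.57 to 0.076, adjusted p = 0.316 from limma), negative under every setting tried.

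The alpha-V and beta-3 genes, which together encode the vitronectin receptor, gave no call. Itgb3 had log2 signals of 7.83, 7.97 and 7.83 on the RUNX2/MYC arrays and of 8.12, 8.02 and 8.06 on the WT arrays, so it was the single member whose RUNX2/MYC arrays all lay below the WT arrays. Its log2 fold change was -0.19 (95% interval -0.39 to 0.018, adjusted p = 0.26 from limma), and it passed only under array weights (-0.17, adjusted p = 0.0337, in a range over the settings of 0.0337 to 0.572). Of all probe sets 24.4% kept the arrays of both groups apart, 10.1% lower and 14.3% higher, against 1 lower and 2 higher of the 10 members. Itgav had a log2 fold change of -0.15 (95% interval -0.48 to 0.17), with overlapping groups. Itgb3 is also a platelet integrin chain. The 6 measured platelet genes were dim, like Itgb3, and not called, with 4 negative and 2 positive values (median -0.15). Itga2b, the platelet partner of Itgb3, had a log2 fold change of -0.20, Treml1 of -0.36 and Pf4, platelet factor, of 0.12. Gp5 had -0.32, with RUNX2/MYC arrays below all WT arrays. The part of platelets in the Itgb3 value was not tested.

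**Figure D2:**
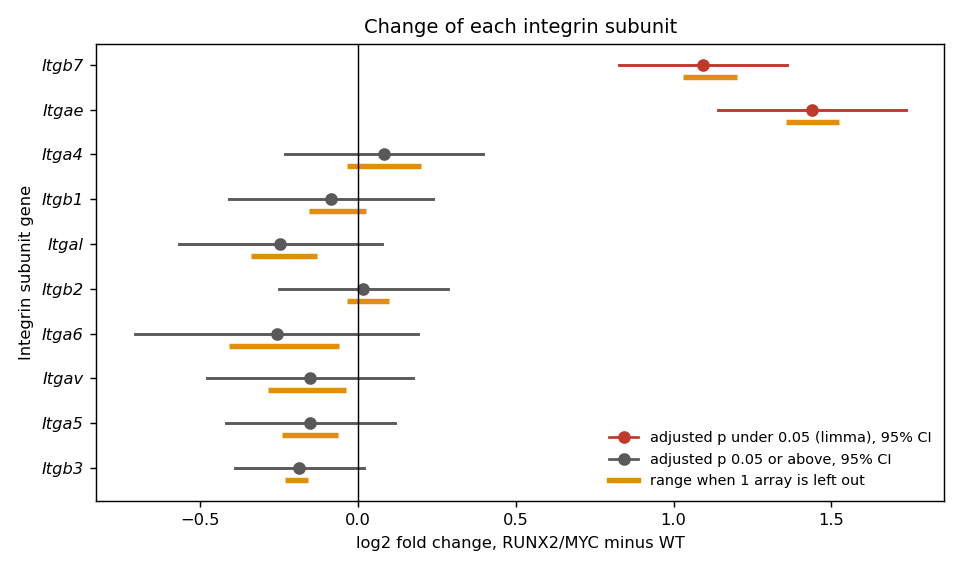
Log2 fold change (horizontal axis, RUNX2/MYC minus WT) of each integrin gene with its 95% interval from limma, red for the genes with an adjusted p under 0.05. Orange bars give the range when 1 array is left out, which for Itgb7 (1.03 to 1.20) and Itgae (1.36 to 1.53) stays far from 0.

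Whether subunit genes changed unequally was asked from the difference of their log2 signals within each array, which scaling an array as a whole leaves as it is. The level of such a difference depends on the probes, and only its shift between the groups is compared. The pairs were partner chains, apart from Itgb7 and Itgb1, whose beta chains are alternative partners of alpha-4. For 8 pairs the shift of that difference between the groups was tested by an exact permutation test (two-sided), in which 3 against 3 arrays cannot give a p below 0.1. Itgb7 minus Itgb1 was -0.58, -0.90 and -0.85 on the RUNX2/MYC arrays and -1.91, -2.02 and -1.94 on the WT arrays, a shift of 1.18, and Itgb7 minus Itga4 shifted by 1.01. Neither pair overlapped between the groups, and both had the smallest p possible (exact permutation test, p = 0.1, 0.2 after Benjamini-Hochberg over the 8 pairs). Each shift is the difference of the fold changes given above, so it is no separate evidence for the rise of Itgb7. How often other pairs of genes keep the groups apart was not counted.

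Between the chains of CD103 the shift was smaller. Itgae minus Itgb7 was 0.26, 0.046 and 0.38 on the RUNX2/MYC arrays and -0.17, -0.012 and -0.17 on the WT arrays, a shift of 0.35 without overlap (exact permutation test, p = 0.1, 0.2 adjusted) that ran from 0.27 to 0.44 when 1 array was left out. Within LFA-1 the shift had the opposite sign. Itgal minus Itgb2 was -0.17, -0.14 and -0.20 on the RUNX2/MYC arrays and -0.050, 0.14 and 0.18 on the WT arrays, a shift of -0.26 with the same p. The other 4 pairs overlapped, with shifts of 0.17 for Itga4 minus Itgb1, -0.17 for Itga6 minus Itgb1, -0.066 for Itga5 minus Itgb1 and 0.033 for Itgav minus Itgb3 (exact permutation test, p = 0.2, 0.3, 0.5 and 0.9).

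**Figure D3:**
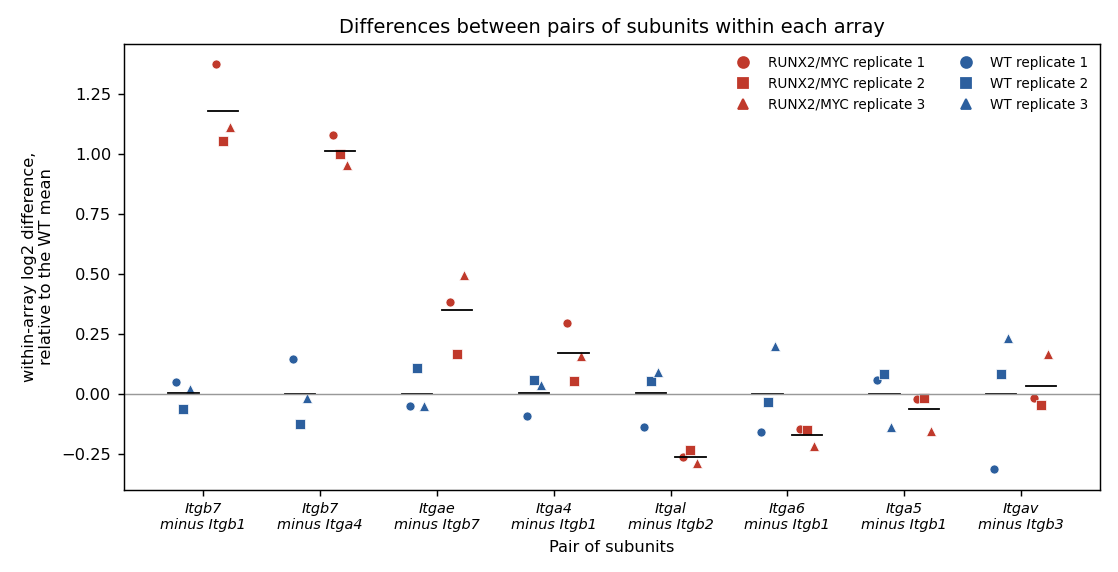
Difference of the log2 signals of 2 subunits within each array (vertical axis), drawn relative to the WT mean of that pair, for 3 WT arrays (blue) and 3 RUNX2/MYC arrays (red) with bars at the means. Itgb7 shifted by 1.18 against Itgb1 and by 1.01 against Itga4, Itgae by 0.35 against Itgb7, and Itgal by -0.26 against Itgb2.

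The transgene products are factors that bind DNA, so the bases before the start site of the beta-7 gene, which rose, and of its alpha-4 partner, which did not, are shown. RefSeq promoter windows (GRCm38.p6) were matched for 5 of the 10 members (Itgb7, Itga4, Itgb1, Itgav and Itga5), and the 250 bases before the start are given 5′ to 3′ on the strand of the gene, Itgb7 at chr15:102231936-102232185 (minus strand, at the RefSeq start that the promoter table uses) and Itga4 at chr2:79255176-79255425 (plus strand). Capitals mark a RUNX core, searched as TGTGGT or TGCGGT on both strands.
Itgb7: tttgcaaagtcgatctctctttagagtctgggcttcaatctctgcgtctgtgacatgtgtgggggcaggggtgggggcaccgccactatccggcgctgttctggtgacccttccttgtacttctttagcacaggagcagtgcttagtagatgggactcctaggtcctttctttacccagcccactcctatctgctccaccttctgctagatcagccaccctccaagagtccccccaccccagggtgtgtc
Itga4: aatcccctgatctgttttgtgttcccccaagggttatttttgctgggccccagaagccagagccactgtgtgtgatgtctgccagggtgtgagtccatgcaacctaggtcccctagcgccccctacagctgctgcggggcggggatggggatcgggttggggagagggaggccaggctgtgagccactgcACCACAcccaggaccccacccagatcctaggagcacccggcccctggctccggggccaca
The RUNX core was found in 1 of the 5 windows, that of Itga4, on the reverse strand from -60 to -55 relative to the start, and in 18.6% of all 32851 windows. The MYC E-box CACGTG was found in 0 of the 5 and in 6.02% of all windows. These counts describe letters within 250 bases only.

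All 16 other subunit genes had a negative log2 fold change, from -0.37 to -0.029 with a median of -0.18, and none was called (limma, 2 at an unadjusted p under 0.05, Itga2 and Itgb8). At an unadjusted p under 0.05 from limma 21.3% of all probe sets passed. The median over all probe sets was -0.051, and 0.065 over those left by a filter on dim probe sets. Median centring moved the median of all probe sets to 0.033, so signs near 0 depend on the scaling. The signs of the list were not counted under that scaling. Group means of the 16 ran from 5.6 (Itgb6, RUNX2/MYC) to 9.02 (Itgb4, WT), against array medians of 7.31 to 7.49. The share of negative values among equally dim probe sets was not counted. Itga2, a collagen receptor chain, had the largest value, -0.37 (adjusted p = 0.176), with RUNX2/MYC signals of 7.28, 6.82 and 7.06 below WT signals of 7.39, 7.44 and 7.45. Itgb8, which with alpha-V activates latent transforming growth factor beta, had -0.30 (adjusted p = 0.158 from limma).

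None of the 25 measured ligand genes was called by limma. At an unadjusted p under 0.05 there were 4, where 21.3% of all probe sets passed. Negative values numbered 23 (median -0.15, against -0.051 over all probe sets). With median centring the median of all probe sets became 0.033, so this count of signs depends on the scaling. Cdh1, E-cadherin and the ligand of CD103, had log2 signals of 8.49, 8.58 and 8.58 on the RUNX2/MYC arrays and of 8.77, 8.84 and 9.04 on the WT arrays. Those groups did not overlap, and the log2 fold change of -0.33 did not pass (adjusted p = 0.145 from limma). For Madcam1, which encodes the ligand of the other beta-7 pair, the log2 fold change was -0.22 (adjusted p = 0.337). The values furthest from 0 were those of the matrix genes Tnc, tenascin C (-0.53, adjusted p = 0.09), and Fn1, fibronectin (-0.39, adjusted p = 0.303), while Vcam1 and Icam1 had -0.081 and -0.11. Genes of thymic epithelium, which bears E-cadherin, had values of the same sign: all 11 had negative values (median -0.30, none called, -0.30 for Ccl25, the brightest), and the log2 of their summed signal ran from 13.74 to 13.94 on the RUNX2/MYC arrays and from 14.17 to 14.33 on the WT arrays. The part of these cells in the ligand values was not tested.

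Among 32 measured genes that act on the opening of integrins, in either direction, or link them to actin, 1 was higher and none lower. The called share of all probe sets was 1.8%. Before adjustment, 21.3% of all probe sets had a limma p below 0.05, and 5 of these 32 genes did (3 rises and 2 falls). There were 16 values on either side of 0 (median -0.0025). Rasgrp2, an exchange factor that loads the integrin-activating GTPase Rap1, had log2 signals of 9.89, 9.95 and 9.98 on the RUNX2/MYC arrays and of 9.25, 9.15 and 9.45 on the WT arrays. It rose by 0.66 on the log2 scale (standard error 0.103, adjusted p = 0.0331 from limma), a 1.58-fold rise. That call ended under 75th percentile centring (adjusted p = 0.062) and in the methods' test with Benjamini-Hochberg adjustment (0.0894), and on dropping RUNX2/MYC replicate 2 (0.152) or 3 (0.153) or WT replicate 1 (0.126) or 2 (0.174), in a range over the settings of 6.1e-04 to 0.174. Tln1, the gene of talin, which binds beta chain tails, had -0.027, the blood cell kindlin gene Fermt3 had 0.095, and the epithelial kindlin gene Fermt1 had -0.46 on the log2 scale (adjusted p = 0.145 from limma).

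Other homing receptors gave no call among 9 measured genes by limma, with a median of -0.015. At an unadjusted p under 0.05 there were 2, where 21.3% of all probe sets passed. S1pr1, the receptor through which mature thymocytes leave the organ, had signals of 9.16, 9.18 and 9.23 against 8.64, 8.79 and 8.92, a log2 fold change of 0.41 (adjusted p = 0.0957 from limma). Cxcr4 had -0.30 (adjusted p = 0.183), and Ccr9, the gut and thymus homing receptor that often accompanies the alpha-4 beta-7 pair on T cells, had 0.0046 (adjusted p = 0.981).

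**Figure D4:**
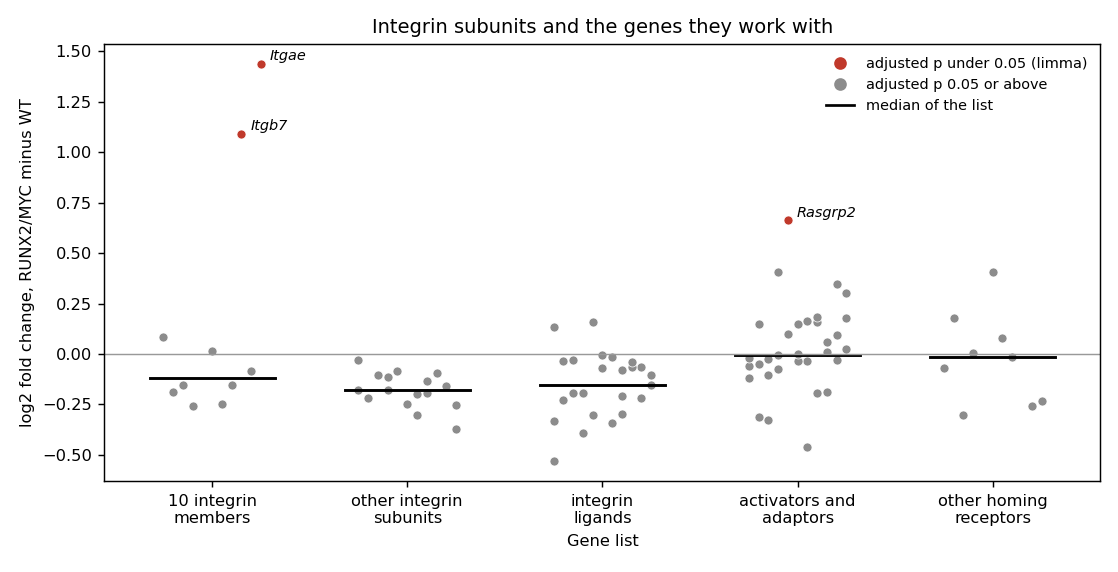
Log2 fold change (vertical axis, RUNX2/MYC minus WT) of each gene of the 10 integrin members and of 4 lists of related genes, with called genes (adjusted p under 0.05) in red and a black bar at the median of each list. Itgae (1.44), Itgb7 (1.09) and Rasgrp2 (0.66) are the genes called, and all 16 other integrin subunits lie below 0. The median of all probe sets was -0.051.

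Markers of the thymocyte classes known to carry CD103 are given here beside the rise of Itgae and Itgb7. Of 8 measured genes of mature single-positive thymocytes Ms4a6b was higher (log2 fold change 1.20, adjusted p = 0.0188 from limma). The list had 5 positive and 3 negative values (median 0.33). At an unadjusted p under 0.05 from limma there were 4, all higher, where 21.3% of all probe sets passed. Ms4a4b had 0.70 (adjusted p = 0.076 from limma). The log2 of the list's summed signal ran from 13.06 to 13.27 on the RUNX2/MYC arrays and from 12.83 to 13.00 on the WT arrays. Klf2, a regulator of thymocyte egress, had 0.53 (adjusted p = 0.0502) and Cd5, the brightest gene of the list, -0.03. The other negative values were those of Il7r (-0.28, adjusted p = 0.317 from limma) and Ccr7 (-0.015, adjusted p = 0.92). Cd8a and Cd8b1 had 0.10 and 0.0098, while Cd4 had signals of 10.80, 11.47 and 11.25 on the RUNX2/MYC arrays, all below the 11.82, 11.87 and 12.07 of WT, and a log2 fold change of -0.74 (adjusted p = 0.091 from limma). Runx3, the RUNX gene of the CD8 lineage, had 0.51 (adjusted p = 0.0661). Of 5 CD8-lineage genes 1 was called (Nkg7, higher), with log2 summed signals of 13.85 to 13.91 on the RUNX2/MYC arrays and 13.64 to 13.95 on those of WT, and of 3 CD4-lineage genes none was, with 11.06 to 11.68 against 12.00 to 12.21. The CD4-lineage sum was mostly Cd4 itself, as Zbtb7b had means of 8.21 (RUNX2/MYC) and 8.42 (WT) and Cd40lg of 6.655 and 6.838. Of 9 measured genes of thymocytes in general none was called (median -0.025, and -0.025 for Cd3g, the brightest), while at an unadjusted p under 0.05 there was 1 positive value and there were 3 negative ones. Those 3 were Cd4 and, of the genes of immature thymocytes, the recombinase gene Rag1 (log2 fold change -0.62, adjusted p = 0.0963) and the terminal transferase gene Dntt (-0.52, adjusted p = 0.139 from limma), each with RUNX2/MYC arrays below all WT arrays.

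For regulatory T cells, Foxp3, their defining gene, had a log2 fold change close to 0 (-0.007, adjusted p = 0.963), Ikzf2 rose by 0.76 (adjusted p = 0.0283) and Il2ra fell by 0.79 on the log2 scale (adjusted p = 0.0328 from limma). Of the 6 genes listed 3 had positive values (median 0.0073). RNA of the whole thymus does not assign the changes of Ikzf2 and Il2ra to regulatory T cells. Of natural killer genes Nkg7, shared with CD8 T cells, rose by 0.89 (adjusted p = 0.0403 from limma), and none of the other 6 was called. For the defining gene Ncr1 the log2 fold change was -0.31 (adjusted p = 0.162), for Klrk1 it was -0.21 (adjusted p = 0.224 from limma), both with RUNX2/MYC arrays below all WT arrays. Ncr1, Klrk1 and Klrb1c were dim in both groups (Ncr1 5.57 to 6.09 over the 6 arrays, Klrk1 4.99 to 5.31, Klrb1c 4.88 to 5.06). Of 6 genes listed for gamma-delta T cells 2 were measured: Sox13 had -0.19, and Cd163l1 had signals of 9.77, 9.19 and 10.53 on the RUNX2/MYC arrays against 8.35, 8.25 and 7.85 on the WT arrays, and its log2 fold change of 1.68 did not pass (adjusted p = 0.0564 from limma). The log2 summed signals ran from 11.77 to 11.89 against 11.83 to 12.06 for the 6 regulatory T-cell genes, from 10.56 to 10.68 against 10.04 to 10.23 for the 7 natural killer genes, and from 9.71 to 10.76 against 9.02 to 9.35 for the gamma-delta genes (RUNX2/MYC against WT). In the natural killer sum the brightest gene was Nkg7 (means 9.79 against 8.90), and the next, Tbx21, had a log2 fold change of 0.051. The gamma-delta sum holds 2 genes, and its rise is that of Cd163l1, as Sox13 had a negative value. In the regulatory T-cell sum the brightest gene was Il2ra on the WT arrays and Ikzf2 on the RUNX2/MYC arrays. The part of these classes in the rise of Itgae and Itgb7 was not tested.

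Genes of dendritic cells and macrophages mostly had the opposite sign to the CD103 chains: 10 of 11 had negative values (median -0.20, none called), Cd74 had -0.38, Xcr1, which marks the dendritic cells that carry CD103, had -0.28 and Itgax -0.18, and the log2 of the summed signal ran from 13.55 to 13.61 on the RUNX2/MYC arrays and from 13.84 to 13.99 on the WT arrays. In the lists of fibroblasts, endothelium, B cells, platelets, erythroid cells and adipocytes no gene was called. Their medians were -0.17, -0.042, -0.25, -0.15, 0.28 and 0.23, and their brightest genes Dcn, Pecam1, Cd79b, Treml1, Alas2 and Fabp4 had log2 fold changes of -0.06, -0.22, -0.26, -0.36, 1.17 and 0.51.

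The 5 genes whose centred log2 signals over the 6 arrays were most like those of Itgb7 were Cdc14b, Il2rb, Pus7l, Naf1 and Nat10, with root mean square differences of 0.0427, 0.0485, 0.0498, 0.055 and 0.0798. Il2rb, a chain of the receptors for interleukin-2 and interleukin-15, had signals of 9.47, 9.52 and 9.51 on the RUNX2/MYC arrays and of 8.25, 8.16 and 8.54 on the WT arrays. WT replicate 3 was the highest WT array for Il2rb, and likewise for Cdc14b, Pus7l, Naf1 and Nat10. For Itgae the root mean square difference from Itgb7 was 0.205, the smallest among the members, and the other 8 lay between 0.512 and 0.69. All of these profiles share the same 6 arrays and the same split into groups. The measure is set largely by the fold change between the groups, so its order among the members mostly restates which of them were called.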

How the data were processed

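Whole thymus RNA was hybridised to Affymetrix mouse gene arrays, 3 a group. The authors deposited log2 signals, normalized between arrays; the submitters' notes name RMA and Affymetrix Expression Console 1.4, the methods name Partek Genomics Suite and an adjustment for GC content. RMA draws dim signals together, so fold changes of dim genes can be understated. The signals were used as deposited. Of 35556 probe sets the annotation pairs 21789 with 1 symbol. Groups were compared by limma 3.58.1 (R 4.3.3) over all probe sets with Benjamini-Hochberg adjustment, after a test on simulated data. Alternatives were median and 75th percentile centring, quantile and cyclic loess normalization, a dim filter, probe sets of 1 gene, array weights, the methods' test with q values, a replicate block and leaving out each array. Members and lists were chosen with earlier results of these data known, and those of regulatory, gamma-delta, natural killer, CD8-lineage and CD4-lineage T cells after the values were seen. Named genes were all members, called or most changed genes of each related list, and the brightest of each marker list; a few others (named ligands, adaptors and markers) were chosen after their values were seen. The number of arrays limits precision, and p-values measure the spread between labelled biological replicates.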

Additional observations from a re-analysis of the deposited data

How the results depend on the processing

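The rises of Itgb7 and Itgae kept their direction under all 16 alternatives and were called under 11; 0 of the members were called higher with the methods' test and Benjamini-Hochberg adjustment and 0 to 2 when 1 array was left out. Array weights, whose estimate did not fully converge, called 1 member lower (Itgb3), 9 other subunits, 13 ligands, 14 activators and adaptors, 4 homing receptors and 9165 higher and 12137 lower of all probe sets. All probe sets called higher (596) and lower (45) became 915 higher under median centring, 209 higher under 75th percentile centring, 98 lower under quantile normalization, 124 lower under cyclic loess, 1247 and 145 with the dim filter, 1236 and 149 over probe sets of 1 gene, 1213 and 247 by q value, 162 higher by the methods' test with Benjamini-Hochberg adjustment, and 3 to 872 and 0 to 718 when 1 array was left out. The share of calls that were higher, 93.0%, was 82.3% under 75th percentile centring, 78.7% under cyclic loess, 68.4% with the replicate block, 54.8% without RUNX2/MYC replicate 1 and 43.0% under array weights. Ligands called became 1 under quantile normalization, cyclic loess, the dim filter, probe sets of 1 gene and the replicate block, and activators and adaptors called became 2 under these and by q value, 0 under 75th percentile centring and the methods' test with Benjamini-Hochberg adjustment, and 0 to 2 when 1 array was left out. Homing receptors called became 1 over probe sets of 1 gene.

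With the replicate number as a block 1654 probe sets were higher and 763 lower and the same 2 members were called. The deviations of same-numbered arrays correlated at 0.501, -0.148 and 0.606. That match was the best for RUNX2/MYC replicates 1 and 3, while RUNX2/MYC replicate 2 correlated best with WT replicate 3 (0.209). The labels give no pairing beyond the number. With 3 arrays a group these correlations cannot tell whether same-numbered samples shared a litter or batch.

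Signs turned for genes near 0. Itga4 had -0.014, -0.016 and -0.069 under 75th percentile centring, quantile normalization and cyclic loess and -0.035 without WT replicate 1, the lowest of a range up to 0.20 when 1 array was left out. Itgb2 had -0.080, -0.087 and -0.13 under the same scalings, and -0.035 to 0.099 when 1 array was left out (-0.025 and -0.024 on dropping RUNX2/MYC replicate 2 or 3, and -0.0045 and -0.035 on dropping WT replicate 1 or 2). Itgb1 had 0.041 under array weights, 0.025 when RUNX2/MYC replicate 1 was dropped and 0.013 when WT replicate 3 was, and ran from -0.16 to 0.025 over the fits that left out 1 array. Itgav minus Itgb3 ran from -0.125 to 0.15 when 1 array was left out (-0.032 without RUNX2/MYC replicate 3, -0.125 without WT replicate 1). The cause was not tested. Each member has 1 probe set, so a mean over probe sets gave no other value.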
